A study of Mus musculus with 7 samples.

Results

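The circadian clock was examined through 10 of its genes in the hearts of NSG-DR1 mice, as rows of a count table picked by gene name: Arntl, Clock, Npas2, Per2, Per3, Cry2, Ciart, Bhlhe40, Bhlhe41 and Dbp. All 10 were found among the 20343 genes of the table analysed, and all 10 had enough counts to be tested. NSG-DR1 mice are severely immunodeficient mice without T, B or NK cells of their own, and the strain, labelled NSG-DRB1*0101, carries a human HLA class II gene in both groups. Human CD4+ T cells were given to 3 mice, called transferred here, and the apex of the heart was taken 6 weeks later, while 4 control mice got no treatment. The age and sex of the mice, and the hour at which the tissue was collected, are not given in the sources used here. Polyadenylated RNA of whole apical tissue was sequenced, so that fewer cells of a type and less RNA per cell cannot be told apart. The labels number the hearts without saying more of their origin, so that p-values measure the spread between these samples.

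The clock is a feedback loop that runs in nearly every cell, cardiomyocytes included, with a period of about a day. ARNTL (also called BMAL1) pairs with CLOCK or its relative NPAS2, and the pair binds E-boxes, short DNA elements near its target genes. Among those targets are the PER and CRY repressors, CIART, BHLHE40 and BHLHE41, which hold the pair back, and Dbp, an output factor that acts through D-boxes. A second loop through ROR and REV-ERB proteins acts on ROR response elements and makes Arntl transcripts peak at about the opposite time of day to Dbp. The level of these transcripts in a tissue taken once is therefore read as a mark of clock state at that moment.

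Promoter windows from RefSeq (GRCm38.p6, 250 bases before to 50 after a start site) were found for 8 of the 10 genes, 11 windows in all. Those of Arntl, Ciart, Bhlhe41 and Per3 are shown because they hold the elements through which the 2 arms of the loop are known to act. Sequences run 5′ to 3′ on the gene's strand, in lower case, and capitals mark the element found.
Arntl: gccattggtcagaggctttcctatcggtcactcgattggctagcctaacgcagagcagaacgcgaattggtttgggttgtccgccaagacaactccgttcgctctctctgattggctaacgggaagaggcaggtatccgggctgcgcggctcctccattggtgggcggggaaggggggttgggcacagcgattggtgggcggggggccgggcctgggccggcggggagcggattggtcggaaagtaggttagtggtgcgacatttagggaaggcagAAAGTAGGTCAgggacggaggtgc
Ciart: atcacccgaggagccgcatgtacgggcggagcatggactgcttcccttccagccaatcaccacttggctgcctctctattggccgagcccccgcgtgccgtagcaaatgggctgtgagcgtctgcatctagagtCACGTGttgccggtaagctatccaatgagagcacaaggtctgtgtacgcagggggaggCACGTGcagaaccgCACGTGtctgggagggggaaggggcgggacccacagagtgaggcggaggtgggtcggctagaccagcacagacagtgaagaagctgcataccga
Bhlhe41: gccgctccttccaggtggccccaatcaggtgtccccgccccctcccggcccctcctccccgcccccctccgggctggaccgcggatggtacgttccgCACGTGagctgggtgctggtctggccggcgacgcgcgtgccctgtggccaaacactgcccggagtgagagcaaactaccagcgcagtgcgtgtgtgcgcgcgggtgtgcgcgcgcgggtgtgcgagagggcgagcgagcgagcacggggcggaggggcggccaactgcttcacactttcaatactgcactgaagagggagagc
Per3: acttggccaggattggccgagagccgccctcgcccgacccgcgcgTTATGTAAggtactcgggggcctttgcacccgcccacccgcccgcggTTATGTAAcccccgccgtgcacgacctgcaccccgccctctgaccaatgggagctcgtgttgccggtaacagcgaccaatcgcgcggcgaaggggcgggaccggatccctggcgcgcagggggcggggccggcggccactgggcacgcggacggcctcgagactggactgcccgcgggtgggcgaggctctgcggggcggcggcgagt
The Arntl window (chr7:113207261-113207560, plus strand) lies inside the annotated span of the gene, at an internal start site, and capitals mark a ROR response element at position 27 from that site. The Ciart window (chr3:95882179-95882478, minus strand) holds 3 E-boxes (CACGTG), at positions -116, -58 and -44 from the start site. The Bhlhe41 window (chr6:145865371-145865670, minus strand) holds 1 E-box, at -153. In the Per3 window (chr4:151044616-151044915, minus strand) the capitals mark 2 D-boxes (TTATGTAA), at -205 and -158. Both strands were searched, and no matches in these windows overlapped each other. Of 32851 windows of the same length, 7.15% held CACGTG, 0.938% held TTATGTAA and 0.384% held a ROR response element. The E-box variant CACGTT was found in the Cry2 window and in 4.68% of all windows, and the D-box form TTACGTAA in no window of the 8 genes and in 0.119% of all. CACGTG was found in 2 of the 11 windows of the clock genes, and the windows of Dbp, Npas2 and Clock held none of the motifs searched, which says only that these letters are not in them. A match describes the letters and does not show a bound site.

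The values below are counts-per-million (CPM), scaled by the trimmed mean of M values over the chromosomes analysed. Column totals ranged from 16402194 to 25190580 counts, and 3 counts corresponded to 0.119 to 0.183 CPM. The 10 genes held from 68 to 6925 counts in a heart, so each was well above that floor, which covers counting error only. Cardiomyocyte markers were high in every heart, with 7 of the 9 listed genes in the table and a summed level of 98894 to 125407 CPM. All 7 macrophage markers in the table were higher in every transferred heart, with sums of 391 to 572 CPM in control and 707 to 1007 CPM in transferred hearts. The neutrophil sum of 5 genes was 8.83 to 13.2 CPM in control hearts and 13.4, 261 and 38.1 CPM in transferred hearts 1, 2 and 3, with none of the 5 markers at 0 in all hearts. Sums of the 4 endothelial and 3 fibroblast markers overlapped between groups, at 997 to 1411 CPM and 1089 to 1684 CPM. The 5 T cell genes (mouse annotation) summed to 28.3 to 38.1 CPM, the 2 skeletal muscle genes to 2.13 to 4.29 CPM and the 2 adipocyte genes to at most 0.709 CPM. The part of macrophage and neutrophil RNA in the levels of the clock genes was not tested.

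In the clock genes 2 hearts, 1 of each group, stood apart from the rest. Transferred heart 2 had the lowest Arntl and Npas2 and the highest Dbp, Per2, Per3, Ciart and Cry2 of the 7 hearts. Control heart 3 had the second lowest Arntl and Npas2 and the second highest Dbp, Per3 and Ciart. Control hearts 1, 2 and 4 had the highest Arntl and the lowest Dbp. None of the 10 genes passed the test between transferred and control hearts (edgeR quasi-likelihood test over 7667 genes, Benjamini-Hochberg adjusted p under 0.05), where 0.235% of all tested genes did (0.13% higher and 0.104% lower). In none of the 10 did the groups separate without overlap, against 11.2% of tested genes (5.99% higher and 5.22% lower). At an unadjusted p under 0.05 there was 1 clock gene, Per2, against 12.4% of all tested genes (7.17% higher and 5.27% lower). That count was 0 under upper-quartile scaling, total counts, either other filter on low counts and the covariate for the form of the identifiers described below. DESeq2 called 0 of the 10 after adjustment, where it called 3.26% of all tested genes, with 1 of the 10 and 988 of 7667 at an unadjusted p under 0.05. limma-voom called 0 of all 7667 genes after adjustment, the 10 included, with 0 of the 10 and 907 in all at an unadjusted p under 0.05. The median log2 fold change of the 10 was 0.10, against -0.002 over all tested genes, and 9 of the 10 were above 0, against 49.7% of tested genes. Without transferred heart 2 the median was 0.032 and 5 of the 10 were above 0. Without control heart 3 the median was 0.26, with 8 above 0, and without transferred heart 1 it was 0.23, with 8 above 0. Without control heart 2 it was 0.042, with 8 above 0.

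**Figure D1:**
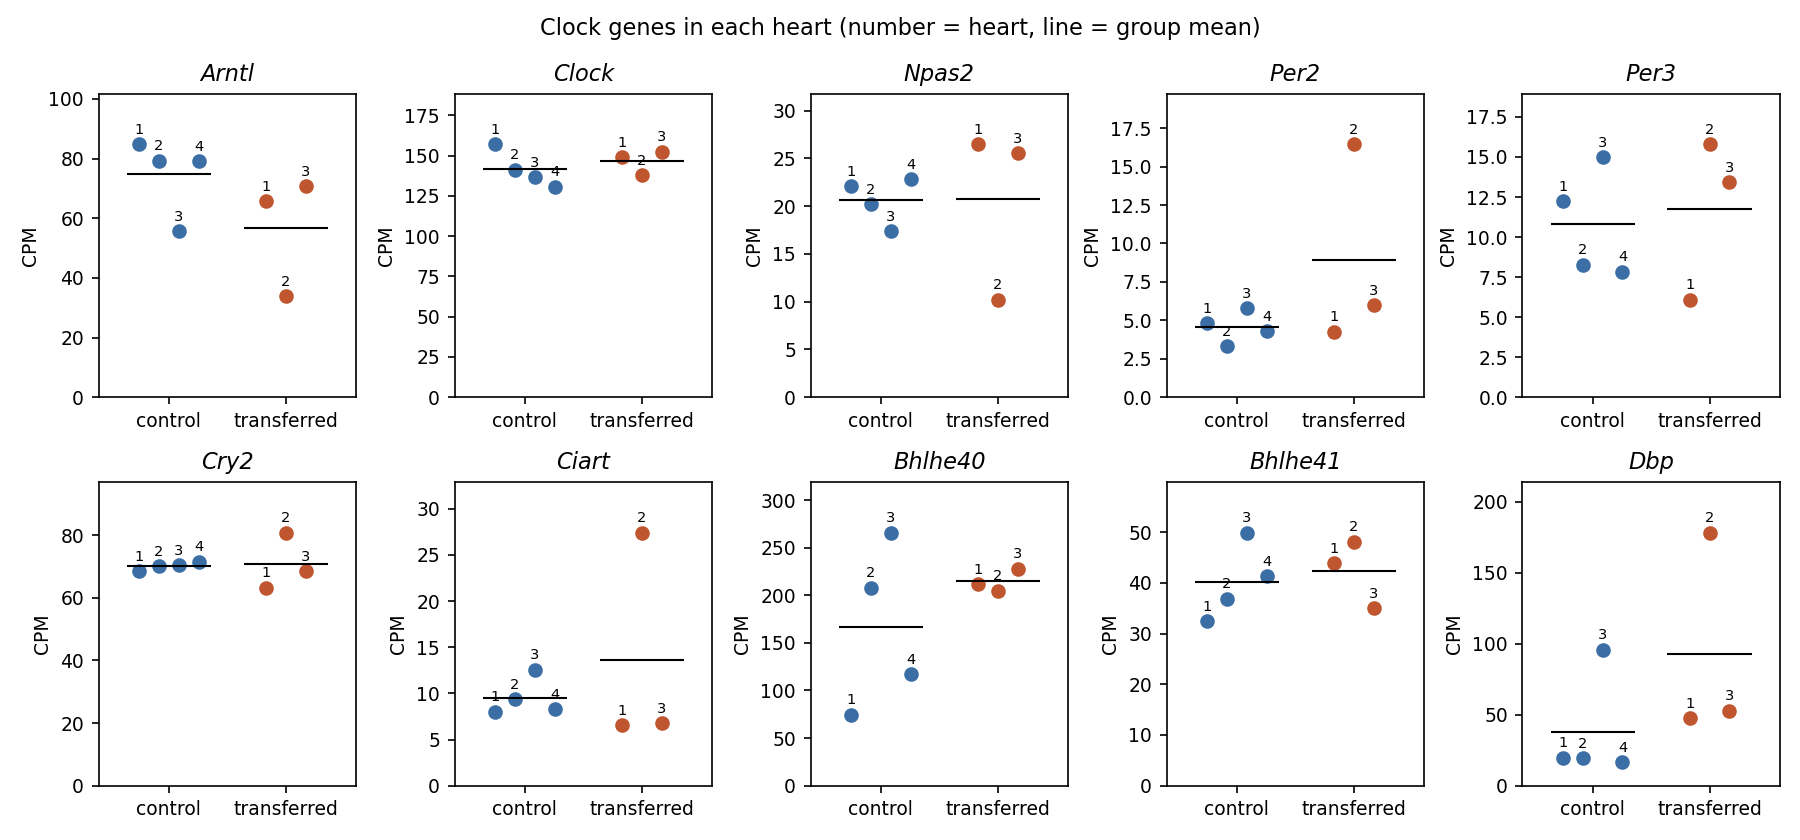
CPM (vertical axes, each from 0) of the 10 clock genes in 4 control hearts (blue) and 3 transferred hearts (orange), with the heart's number beside each point and a line at the group mean. Transferred heart 2 is lowest for Arntl at 33.8 CPM and highest for Dbp at 178 CPM, and the groups overlap in every panel.

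Of the activators, Arntl, the obligate partner of the loop (chromosome 7, 113178471 to 113314126, plus strand), was at 84.9, 79.4, 55.6 and 79.1 CPM in control hearts 1 to 4 and 65.7, 33.8 and 70.7 CPM in transferred hearts 1 to 3. Transferred heart 2 stood lowest, at 0.466 times the mean of the other 6 hearts, and control heart 3 came next. Transferred hearts 1 and 3 lay between control heart 3 and the other control hearts. The group means were 74.7 ± 13.0 CPM (SD, n = 4) for control and 56.7 ± 20.01 CPM (SD, n = 3) for transferred hearts, with a log2 fold change of -0.40 ± 0.25 (SE, edgeR adjusted p = 0.59), and without transferred heart 2 the log2 fold change was -0.13. Npas2, which can replace CLOCK as the partner of ARNTL (chromosome 1, 39193702 to 39363240, plus strand), was at 22.1, 20.2, 17.4 and 22.8 CPM in control hearts 1 to 4 and 26.5, 10.2 and 25.5 CPM in transferred hearts 1 to 3. Its lowest hearts were the same as those of Arntl, transferred heart 2 and control heart 3, but transferred hearts 1 and 3 were the highest of all 7. The group means were nearly equal, at 20.6 ± 2.43 CPM (SD, n = 4) for control and 20.7 ± 9.14 CPM (SD, n = 3) for transferred hearts (edgeR adjusted p = 0.993). Clock itself (chromosome 5, 76209868 to 76305603, minus strand) varied little, from 131 CPM in control heart 4 to 157 CPM in control heart 1, a ratio of 1.2, and in textbook descriptions its transcript cycles weakly or not at all in most tissues.

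Per2 is the repressor whose transcript also answers to glucocorticoid and other signals (chromosome 1, 91415977 to 91459351, minus strand). It was at 4.81, 3.31, 5.8 and 4.29 CPM in control hearts 1 to 4 and 4.25, 16.5 and 5.98 CPM in transferred hearts 1 to 3, from 68 to 350 counts. The other 6 hearts lay between 3.31 and 5.98 CPM, below transferred heart 2, which was 3.47 times the mean of the others. The group difference was a log2 fold change of 0.97 ± 0.43 (SE, edgeR adjusted p = 0.4), with an unadjusted p of 0.0492, and without transferred heart 2 the log2 fold change was 0.17. Per3, a paralog that is dispensable for the loop itself (chromosome 4, 150997018 to 151044707, minus strand), was at 12.3, 8.26, 15.0 and 7.82 CPM in control hearts 1 to 4 and 6.08, 15.8 and 13.4 CPM in transferred hearts 1 to 3. Its order differed from that of Per2, with the lowest level in transferred heart 1 and levels above 13 CPM in transferred hearts 2 and 3 and control heart 3. The group means were 10.8 ± 3.41 CPM (SD, n = 4) for control and 11.8 ± 5.07 CPM (SD, n = 3) for transferred hearts (edgeR adjusted p = 0.922).

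Cry2, one of the 2 cryptochromes that block the ARNTL pair directly (chromosome 2, 92403646 to 92434085, minus strand), varied least of the 10 in control hearts, at 68.5, 70.0, 70.4 and 71.4 CPM. Transferred hearts 1, 2 and 3 had 63.1, 80.8 and 68.5 CPM, so that the control range lay inside the transferred range. Ciart (also called Chrono), a repressor that binds ARNTL (chromosome 3, 95878500 to 95882257, minus strand), was at 8.02, 9.34, 12.6 and 8.27 CPM in control hearts 1 to 4 and 6.53, 27.4 and 6.77 CPM in transferred hearts 1 to 3. Transferred heart 2 was 3.2 times the mean of the others, while transferred hearts 1 and 3 were the lowest of the 7. The direction of its group difference therefore rested on 1 heart: the log2 fold change was 0.51 ± 0.51 (SE) in all hearts and -0.52 without transferred heart 2 (edgeR adjusted p = 0.75 and 0.524).

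Bhlhe41 (DEC2), an E-box repressor (chromosome 6, 145858243 to 145865420, minus strand), had a narrow range, at 32.5, 36.9, 49.9 and 41.4 CPM in control hearts 1 to 4 and 43.9, 48.2 and 35.0 CPM in transferred hearts 1 to 3. Control heart 3 and transferred heart 2 were its highest hearts, in the same direction as Dbp, and the groups overlapped. Its relative Bhlhe40 (DEC1) (chromosome 6, 108660629 to 108666925, plus strand) responds to hypoxia, serum and other stimuli as well as to the clock. It was at 74.59, 208, 266 and 117 CPM in control hearts 1 to 4 and 212, 205 and 228 CPM in transferred hearts 1 to 3. The 3 transferred hearts lay close together, and control hearts 1 and 4 were far below the other 5. The group means were 166 ± 86.5 CPM (SD, n = 4) for control and 215 ± 11.8 CPM (SD, n = 3) for transferred hearts, with a log2 fold change of 0.37 ± 0.41 (SE, edgeR adjusted p = 0.792). It was 0.13 without control heart 1, 0.23 without control heart 4 and 0.69 without control heart 3.

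Dbp encodes a PAR-domain activator of output genes and cycles with one of the widest ranges of any transcript in many tissues (chromosome 7, 45705100 to 45710203, plus strand). It was at 19.8, 19.3, 95.9 and 16.7 CPM in control hearts 1 to 4 and 47.5, 178 and 52.8 CPM in transferred hearts 1 to 3. The highest heart exceeded the lowest 10.7-fold. Control hearts 1, 2 and 4 formed a low cluster, transferred hearts 1 and 3 lay above them, and control heart 3 and transferred heart 2 were highest. The group means were 37.9 ± 38.7 CPM (SD, n = 4) for control and 92.8 ± 74.0 CPM (SD, n = 3) for transferred hearts, with a log2 fold change of 1.28 ± 0.83 (SE, edgeR adjusted p = 0.608). The SD of the control hearts exceeded their mean, and the log2 fold change was 2.32 without control heart 3 and 0.39 without transferred heart 2.

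**Figure D2:**
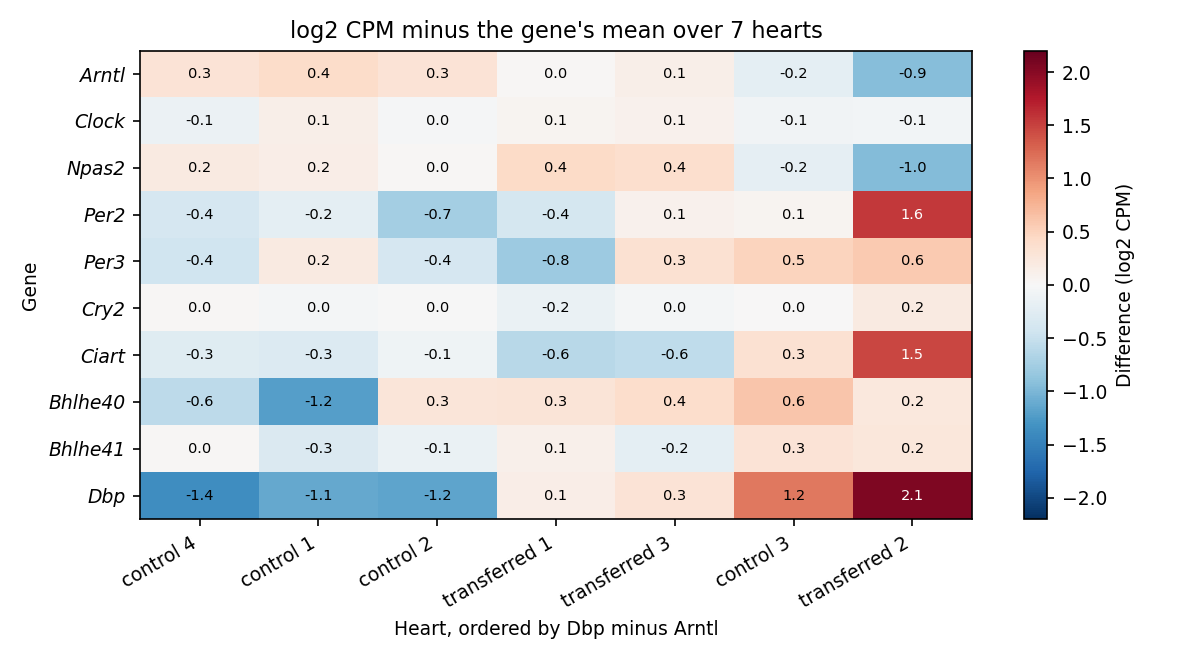
Difference of log2 CPM from the gene's mean over 7 hearts (colour and printed value) for the 10 clock genes (rows) in hearts ordered from the lowest to the highest Dbp minus Arntl (columns). In the rightmost column, transferred heart 2, Arntl and Npas2 are low while Per2, Ciart and Dbp are high, and Clock and Cry2 vary little throughout.

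Divided by exon length, Bhlhe40 was the most abundant of the 10 at a mean level of 60.1 CPM per kilobase. It was followed by Dbp at 24.4, Cry2 at 17.0 and Clock at 13.2 CPM per kilobase. Bhlhe41, Arntl, Ciart and Npas2 had mean levels of 6.71, 6.45, 4.98 and 4.61 CPM per kilobase. Per3 and Per2 had the lowest means, at 1.63 and 1.07 CPM per kilobase. These means cover all 7 hearts, and the order depends on the heart. In transferred heart 2 the level of Ciart, at 12.1 CPM per kilobase, was above those of Bhlhe41 at 7.87 and Arntl at 3.25. Npas2, at 2.27 CPM per kilobase, was the lowest of the 10 there, below Per3 at 2.29 and Per2 at 2.74.

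To set the hearts side by side, the mean log2 CPM of Arntl, Npas2 and Clock was subtracted from that of 5 target genes, Dbp, Per2, Per3, Ciart and Bhlhe41. This index was -2.40, -2.42, -1.20 and -2.43 in control hearts 1 to 4 and -2.30, -0.0067 and -2.03 in transferred hearts 1 to 3. Control hearts 1, 2 and 4 lay close together, and control heart 3 and transferred heart 2 lay far above them. The ratio of Dbp to Arntl CPM, a narrower measure, was 0.211 to 0.243 in control hearts 1, 2 and 4 and 1.72 in control heart 3. In transferred hearts 1 and 3 it was 0.723 and 0.746, and in transferred heart 2 it was 5.27. By both measures transferred hearts 1 and 3 lay above control hearts 1, 2 and 4 and below control heart 3 and transferred heart 2. The 2 measures share Dbp and Arntl and are not separate findings. In transferred heart 1, Per3 and Ciart were the lowest of the 7 hearts, at 6.08 and 6.53 CPM, and Npas2 the highest, at 26.5 CPM. Its Per2 lay within the range of control hearts 1, 2 and 4, and its Bhlhe41 and Dbp lay above it. The index was not computed without Dbp.

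The index averaged -2.11 ± 0.61 (SD, n = 4) in control and -1.44 ± 1.25 (SD, n = 3) in transferred hearts, a difference of 0.67 against a within-group SD of 0.92. Without transferred heart 2 the difference was -0.048, and without control heart 3 it was 0.97. It was 1.10 without transferred heart 1 and 0.96 without transferred heart 3. No p is given for this score, since its genes were chosen with results of these hearts known. The sources used here state no hour of collection, and each heart was sampled once, so that an earlier or later phase and a larger or smaller swing cannot be told apart. Transferred heart 2 also had the highest macrophage and neutrophil sums, and control heart 3 had the lowest of both.

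**Figure D3:**
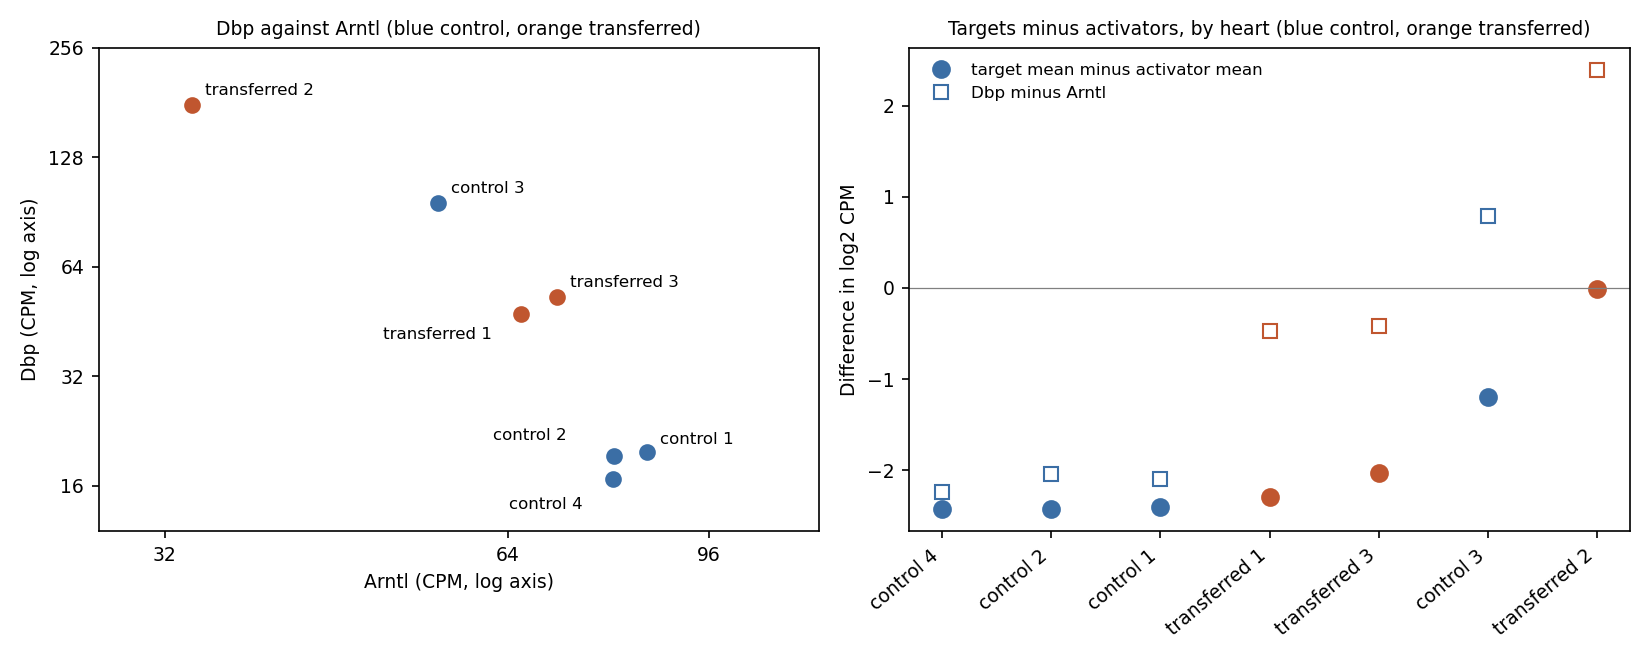
Left, Dbp against Arntl in CPM on log axes, 1 point per heart. Right, the mean log2 CPM of 5 target genes minus that of 3 activators (filled circles) and Dbp minus Arntl (open squares) in hearts ordered by the first. Control heart 3 and transferred heart 2 lie at low Arntl and high Dbp, and transferred hearts 1 and 3 lie above control hearts 1, 2 and 4 in both measures. Both measures contain Dbp and Arntl.

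The opposition of the arms was examined as correlations of log2 CPM over the 7 hearts. Of 9 relations with Arntl, that of Dbp passed, with Pearson r = -0.93 (exact permutation p = 0.00238, 0.0214 after Benjamini-Hochberg adjustment over 9) and Spearman rho = -0.82 (exact permutation p = 0.0341, 0.154 adjusted). The call was lost without any 1 heart, with r from -0.95 to -0.91 (adjusted exact permutation p from 0.05 to 0.15), and adjustment over all 45 pairs of the 10 genes gave p = 0.0536. Subtracting group means left r = -0.90 (exact permutation within groups p = 0.0833), and leaving out control heart 3 and transferred heart 2, the hearts farthest from the Arntl median, left r = -0.88 (exact permutation p = 0.1). Within those 5 hearts both transferred hearts were lower in Arntl and higher in Dbp than the 3 control hearts.

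The other relations with Arntl did not pass, and several rested on the same 2 hearts. Pearson r was -0.91 for Per2, -0.89 for Ciart, 0.87 for Npas2, -0.74 for Bhlhe41 and -0.70 for Cry2 (adjusted exact permutation p = 0.0725 for each but Cry2, 0.195). Their rho values were -0.57, -0.39, 0.32, -0.86 and -0.43 (adjusted exact permutation p from 0.154 to 0.498). Without the 2 outlying hearts r for Ciart turned to 0.81, for Npas2 to -0.85 and for Cry2 to 0.75, while r for Per2 was -0.23. Per3, Bhlhe40 and Clock had r of -0.53, -0.48 and 0.33 (adjusted exact permutation p = 0.271, 0.271 and 0.504) and rho of -0.50, -0.54 and 0.43 (adjusted exact permutation p = 0.445 for each).

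Npas2 and Ciart formed the tightest pair. Over the 45 pairs of the 10 genes, examined after the values were seen, theirs was the 1 pair that passed, with Pearson r = -0.998 (exact permutation p = 0.000397, 0.0179 adjusted over 45). Spearman rho was -0.96 (exact permutation p = 0.00278, 0.125 adjusted over 45). Leaving out control heart 3 and transferred heart 2, the hearts farthest from the Npas2 median, gave r = -0.98 (exact permutation p = 0.0167), and leaving out transferred heart 2 alone gave -0.99. With both left out, transferred hearts 1 and 3 were higher in Npas2 and lower in Ciart than control hearts 1, 2 and 4. That r therefore includes the difference between the groups, and no p within groups was computed for this pair. Hearts with high Npas2, such as transferred heart 1 at 26.5 CPM, had low Ciart, there 6.53 CPM, and transferred heart 2 reversed both. Ciart is the gene with 3 E-boxes in the window printed above, and whether they have a part in this relation was not tested. No other pair of the 45 passed after adjustment. Of all 45, Npas2 and Ciart included, 9 had an unadjusted exact permutation p under 0.05 for Pearson r.

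Transferred hearts 1 and 3 differed from transferred heart 2 in several members. Against the mean of control hearts 1, 2 and 4, their mean Dbp was 2.7 times as high, at 50.1 against 18.6 CPM. Over the same hearts Bhlhe40 was 1.65 times and Per2 1.24 times the control level, Npas2 was 1.2 times, Arntl 0.841 times and Ciart 0.779 times that level, and Clock, Per3, Cry2 and Bhlhe41 lay between 0.94 and 1.07 times. Fitted without control heart 3 and transferred heart 2, Dbp differed by 1.43 ± 0.13 on the log2 scale (SE, edgeR adjusted p = 0.0224). It was 1 of 3 genes past the threshold among 7711 (0.0389%), beside Thrsp and Timp4. The 2 hearts were left out because their Dbp stood apart, so this p is not a test free of that choice. Ciart did not pass there, at -0.36 on the same scale (edgeR adjusted p = 0.641).

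The identifiers of the animals have 2 forms, letters with a number (heart 1 of each group) and numbers alone (the other 5 hearts), and the labels do not say what they mark. Dbp differed in the same direction in both, by 1.26 on the log2 scale between the 2 hearts with letters and by 1.39 (standard error 1.06) among the 5 others (edgeR adjusted p = 0.63). Bhlhe40, at 1.505 and 0.14, and Arntl, at -0.37 and -0.44, also kept their direction. The other 7 of the 10 did not. Per3 was at -1.0003 between the hearts with letters and 0.50 among the others, Per2 at -0.17 and 1.34, and Ciart at -0.29 and 0.77. Npas2 was at 0.26 and -0.17, Bhlhe41 at 0.43 and -0.033, Cry2 at -0.12 and 0.088, and Clock at -0.078 and 0.099.

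**Figure D4:**
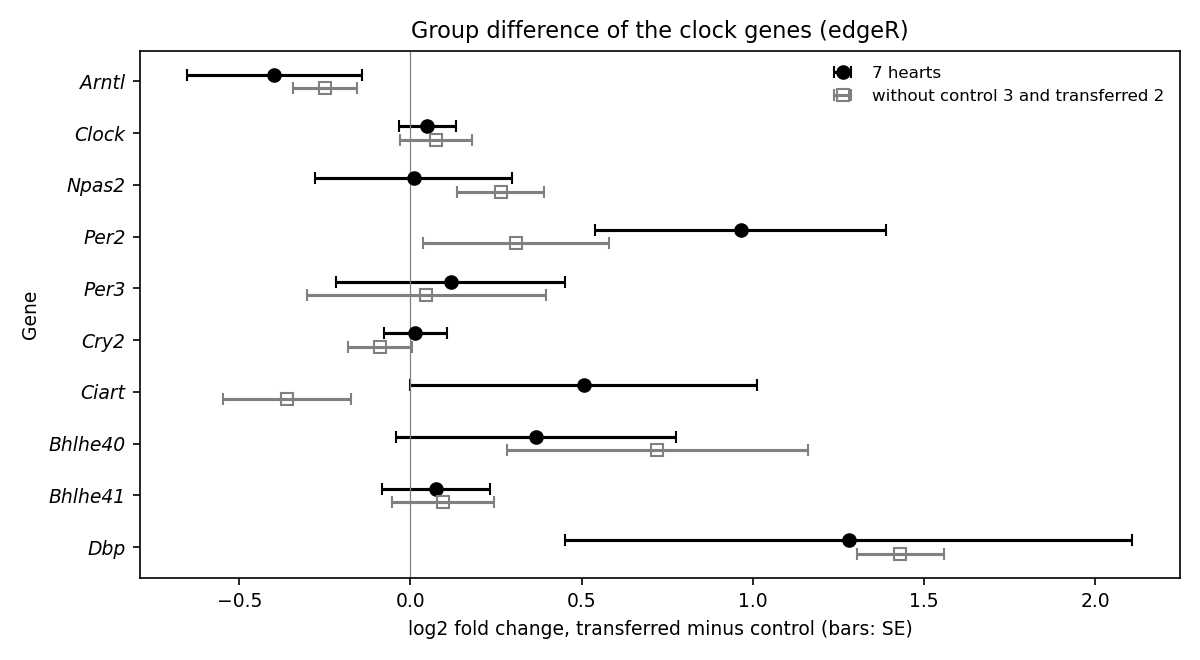
log2 fold change of each clock gene, transferred minus control, with bars of 1 standard error, from all 7 hearts (filled circles) and without control heart 3 and transferred heart 2 (open squares). With all hearts Dbp has the widest bar and Ciart lies above 0, and without those hearts Ciart lies below 0 and the bar of Dbp is narrower.

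Within groups 8 of the 10 clock genes spread more than the median tested gene, and Cry2 and Clock spread less. The SD of log2 CPM within groups had a median of 0.54 over the 10 genes and 0.18 over the 7667 tested genes. Dbp had an SD of 1.14, rank 76 of 7667, and Ciart 0.77, rank 317. Per2, Bhlhe40 and Per3 had SDs of 0.68, 0.64 and 0.58, and 5 of the 10 genes were among the top 10% of tested genes by this measure. Npas2 and Arntl followed with 0.51 and 0.43. Bhlhe41, Cry2 and Clock, at 0.25, 0.12 and 0.10, had ranks of 2628, 5694 and 6262. The spread rested largely on control heart 3 and transferred heart 2. Without them the median SD was 0.12 over the 10 genes and 0.17 over all tested genes, 4 of the 10 were above the latter, and 1, Bhlhe40 at 0.61, was among the top 10%. Dbp then had an SD of 0.13, rank 5103, Ciart 0.096, Arntl 0.064 and Npas2 0.078, while Per3 had 0.54. The 10 genes were chosen with earlier results known and the 2 hearts were left out for their clock values, so these ranks are a description without a test.

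**Figure D5:**
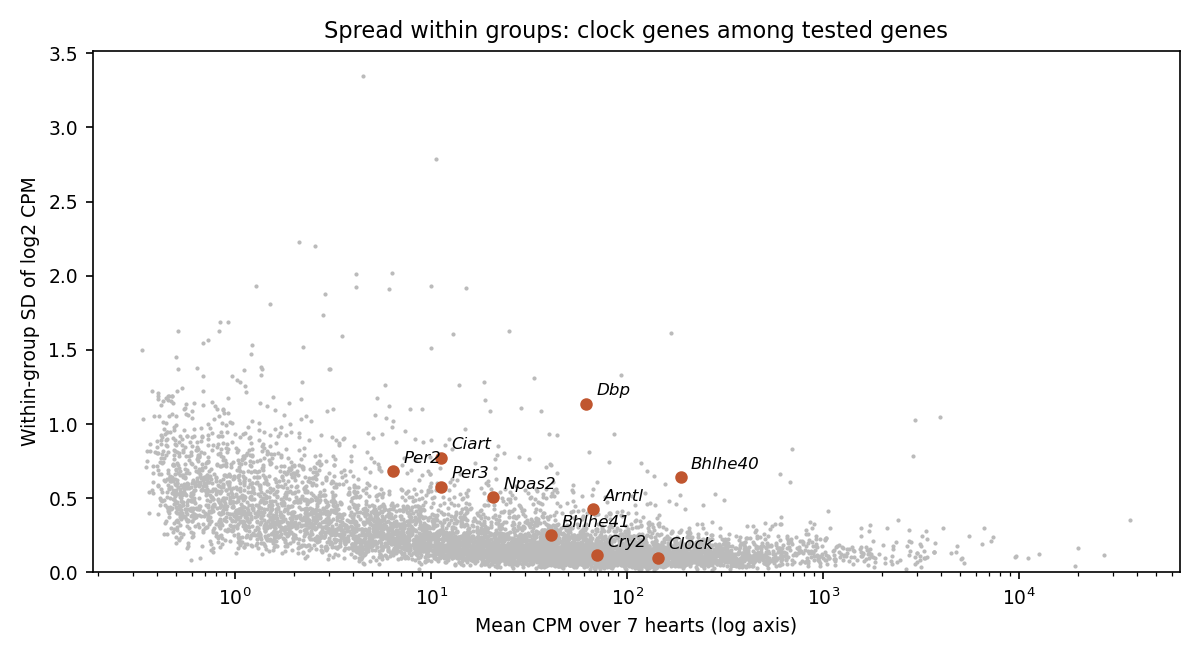
Within-group SD of log2 CPM (vertical axis) against mean CPM over 7 hearts (horizontal log axis) for 7667 tested genes (grey) and the 10 clock genes (orange, named). Dbp, at an SD of 1.14, stands above nearly all genes of its level, whereas Clock and Cry2 sit among the bulk.

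Bhlhe40 was compared with genes of the immediate early response, which are induced within minutes of a stimulus. The summed level of 9 such genes was 510, 904, 977 and 764 CPM in control hearts 1 to 4 and 940, 702 and 936 CPM in transferred hearts 1 to 3. Control heart 1 was lowest and control heart 3 highest both in this sum and in Bhlhe40, but transferred heart 2 had a lower sum than control heart 4 with a higher level of Bhlhe40. Over the 7 hearts Bhlhe40 correlated with Klf4, a zinc-finger factor, at r = 0.99 (exact permutation p = 0.000397, 0.00357 adjusted over 9 relations) and rho = 0.96 (exact permutation p = 0.00278, 0.025 adjusted). It correlated with Errfi1, an inhibitor of EGF receptor signalling, at r = 0.91 (exact permutation p = 0.00655, 0.0295 adjusted) and rho = 0.75 (adjusted exact permutation p = 0.149). Leaving out control hearts 1 and 4, farthest from the Bhlhe40 median, left r = 0.83 for Klf4 (exact permutation p = 0.0583) and 0.37 for Errfi1, so the second relation rested on those hearts. The other 7 genes did not pass, with r from -0.13 for Gadd45a to 0.82 for Btg2 (adjusted exact permutation p from 0.0738 to 0.796). Without transferred heart 2, r was 0.95 for Btg2, 0.92 for Jun, 0.91 for Atf3, 0.87 for Fosb and 0.64 for Ier5. For Zfp36 and Gadd45a it was 0.11 and -0.084, and no p was computed without that heart. These relations were examined after the values were seen. For comparison, r between Bhlhe40 and Dbp was 0.63, and the difference between these correlations was not tested.

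Of 34 further clock genes on a list of receptors, kinases, ubiquitin ligase parts and cofactors of the loop, 11 were in the table and 10 were tested. None passed in either direction, against 0.235% of all tested genes. At an unadjusted p under 0.05 were 2 higher and 1 lower, against 7.17% and 5.27% of all tested genes, and the median log2 fold change was 0.0074 against -0.002 over all tested genes. Arntl2 had 3 to 10.5 counts in a heart and was not tested. Ppargc1a (PGC-1 alpha), a coactivator of ROR proteins and of mitochondrial genes, was at 207, 199, 206 and 206 CPM in control hearts 1 to 4 and 233, 307 and 255 CPM in transferred hearts 1 to 3. It was higher in every transferred heart, with a log2 fold change of 0.37 ± 0.09 (SE, edgeR adjusted p = 0.143). Ppp1cb, a phosphatase subunit that acts on PER proteins, was at 784 ± 39.7 CPM (SD, n = 4) for control and 887 ± 48.4 CPM (SD, n = 3) for transferred hearts (edgeR adjusted p = 0.392). In 4 of the 10 the groups did not overlap, 2 higher and 2 lower, against 11.2% of tested genes, among them Ppargc1a, Ppp1cb and Csnk2a1, a kinase subunit at 382 ± 12.4 CPM (SD, n = 4) for control and 354 ± 13.3 CPM (SD, n = 3) for transferred hearts.

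Of 22 genes known as clock outputs, 12 were in the table and all 12 were tested. None passed, against 0.235% of all tested genes. At an unadjusted p under 0.05 were 3 of the 12, all of them lower, against 5.27% of all tested genes that were lower at that level, and the median log2 fold change was -0.11. Dgat2, an enzyme of triglyceride synthesis, was at 585, 563, 433 and 600.0 CPM in control hearts 1 to 4 and 455, 411 and 413 CPM in transferred hearts 1 to 3. Control heart 3 lay with the transferred hearts, as it did for Arntl, and the difference was a log2 fold change of -0.36 ± 0.11 (SE, edgeR adjusted p = 0.243). Wee1, a kinase that delays mitosis and an E-box target, was at 32.3, 35.3, 26.9 and 33.8 CPM in control hearts 1 to 4 and 26.8, 26.6 and 21.2 CPM in transferred hearts 1 to 3, without overlap between the groups (edgeR adjusted p = 0.287). Ucp3, a mitochondrial carrier whose heart transcript cycles, was at 49.9, 64.4, 41.5 and 55.5 CPM in control hearts 1 to 4 and 39.9, 17.3 and 37.2 CPM in transferred hearts 1 to 3. It was lowest in transferred heart 2, and its log2 fold change of -0.75 ± 0.28 (SE, edgeR adjusted p = 0.325) did not pass.

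Of 14 early response genes 9 were in the table and tested, none passed, and the median log2 fold change was 0.08. At an unadjusted p under 0.05 were 2 of the 9, 1 higher and 1 lower, against 12.4% of all tested genes. Gadd45a, a stress gene of growth arrest, was lower in every transferred heart, at 36.0 ± 3.6 CPM (SD, n = 4) for control and 24.9 ± 1.09 CPM (SD, n = 3) for transferred hearts, with a log2 fold change of -0.54 ± 0.10 (SE, edgeR adjusted p = 0.0702). DESeq2 called 2 of the 31 tested genes of the 3 lists, Gadd45a and Ppargc1a, where it called 3.26% of all tested genes. Zfp36, an mRNA-decay factor, was at 50.2 ± 9.7 CPM (SD, n = 4) for control and 66.1 ± 10.8 CPM (SD, n = 3) for transferred hearts (edgeR adjusted p = 0.32), and Ier5 at 76.7 ± 10.96 CPM (SD, n = 4) for control and 91.7 ± 11.5 CPM (SD, n = 3) for transferred hearts (edgeR adjusted p = 0.445).

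Among 5726 genes with a mean of at least 5 CPM, the genes whose pattern over the 7 hearts was most like that of Arntl were Chl1 (r = 0.98), a neural adhesion molecule, Sphk2 (0.97), a sphingosine kinase, Gm11816 (0.97), Trmt1l (0.96) and Gstm3 (0.96). Those most opposed to it were Snrpb2 (-0.97), a U2 spliceosome protein, Plekha3 (-0.96), Mccc1 (-0.95), an enzyme of leucine breakdown, H19 (-0.95), an imprinted noncoding RNA, and Gm6485 (-0.95). Chl1 was at 6.42, 5.47, 4.18 and 6.69 CPM in control hearts 1 to 4 and 4.56, 2.35 and 5.44 CPM in transferred hearts 1 to 3. Transferred heart 2 was its lowest heart and control heart 3 the next, as for Arntl. H19 was at 9.39, 14.4, 21.8 and 8.27 CPM in control hearts 1 to 4 and 22.4, 62.7 and 14.0 CPM in transferred hearts 1 to 3, highest in transferred heart 2.

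Most like Dbp were Lactb2 (r = 0.99), Pdp1 (0.96), Gnpda2 (0.95), Snrpb2 (0.95) and Lhfp (0.94). Most opposed were Smurf1 (-0.99), Tstd2 (-0.98), Depdc5 (-0.98), Gstm3 (-0.98) and Pnpla2 (-0.98). Pdp1, a phosphatase that activates pyruvate dehydrogenase, was at 74.9, 75.1, 89.4 and 78.6 CPM in control hearts 1 to 4 and 87.2, 101 and 85.0 CPM in transferred hearts 1 to 3. Pnpla2 (adipose triglyceride lipase) was at 968, 948, 723 and 956 CPM in control hearts 1 to 4 and 844, 651 and 749 CPM in transferred hearts 1 to 3. Its lowest hearts, transferred heart 2 and control heart 3, were the highest in Dbp. Smurf1, a ubiquitin ligase, was at 133, 134, 116 and 133 CPM in control hearts 1 to 4 and 121, 108 and 119.7 CPM in transferred hearts 1 to 3, and Depdc5, a GATOR1 subunit that restrains mTORC1, had 61.6 CPM in control heart 4 and 45.0 CPM in transferred heart 2. These genes are the extremes of 5726 correlations over 7 hearts, so high values of r are the outcome of the choice and carry no p.

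A last fit over all genes took clock state into the model. With the log2 difference of Dbp and Arntl in each heart as a covariate, 0 genes passed (edgeR, 549 at an unadjusted p under 0.05), against 18 of 7667 without it and 954 at an unadjusted p under 0.05. All 18 kept their direction. A covariate for the form of the identifiers also gave 0. By that count the cost of 1 more covariate and the adjustment for clock state cannot be told apart. At an unadjusted p under 0.05 the identifier covariate gave 973 genes, more than without a covariate, and Dbp minus Arntl gave fewer. Dbp minus Arntl itself differed between the groups, by 1.90 against a within-group SD of 1.53, so adjusting for it overlaps with the group difference.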

How the data were processed

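RNA of 7 hearts, 4 control and 3 transferred, was analysed. The authors deposited estimated counts per gene, not normalized, 1 column per heart. The submitters' processing notes name bcl2fastq 2.20.0.422, cutadapt 2.5, STAR 2.7.2b, featureCounts 1.6.4, DESeq2 1.22.2 and GRCm38.p6. Of the values, 4.63% carried a fraction, and all were rounded. The table analysed ran from chromosome 1 to 7 and the start of 8 (20343 complete rows, 1 unfinished row left out), and genes elsewhere, several core clock genes included, are not analysed here. Totals are sums over this part and not library depth. Same-group libraries differed beyond sampling noise (chi-square per degree of freedom from 17.4 to 77.2 over 9 pairs). Groups follow the treatment label, and replicates were numbered in accession order.

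Genes were filtered with filterByExpr, scaled by TMM and tested with the edgeR 4.0.16 quasi-likelihood test with robust estimation (R 4.3.3), with Benjamini-Hochberg adjustment at 0.05. limma 3.58.1 and DESeq2 1.42.0 served as alternatives. Tested on simulated counts for 7667 genes, the procedure recovered 92.0% of 200 genes changed by 2 on the log2 scale. The group differences of the 10 clock genes over all hearts were smaller than that, and recovery of smaller changes was not simulated. log2 CPM used a prior count of 2. Members and lists were chosen with earlier results of these data known. Named genes are the 10 members, the 3 smallest p-values of each list and the 5 most and least correlated genes with Arntl and Dbp. The result of 1 gene that this rule names is not reported here. Csnk2a1, Thrsp, Timp4, Arntl2, Klf4, Errfi1, Btg2, Jun, Fosb and Atf3 were named after their values were seen.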

Additional observations from a re-analysis of the deposited data

Results flagged for a closer look

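A heart far from the other 3 control hearts was looked for in 39 values, and 12 showed one, where chance marks about 1 in 20, or 1.95. Control heart 3 accounted for 4 clock values: log2 CPM of Arntl was 5.80 (6.31 to 6.41 in the others), log2 CPM of Dbp was 6.58 (4.07 to 4.31), the index was -1.20 (-2.43 to -2.40), and Dbp minus Arntl was 0.79 (-2.24 to -2.04). These 4 share Arntl and Dbp and are not separate findings.

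Control heart 3 was also marked for Gm11816 at a log2 CPM of 4.06, Gstm3 at 3.89, Lactb2 at 5.71, Smurf1 at 6.86, Tstd2 at 5.10 and Pnpla2 at 9.50. Those genes were picked for their likeness to Arntl or Dbp, which makes the same heart stand apart. Ppargc1a in control heart 2 was at 7.64, against 7.69 to 7.70 in the others, a small step in a tight group. Zfp36 in control heart 4 was at 6.02, against 5.47 to 5.52. Transferred hearts, 3 in number, were too few for this check.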

How the results depend on the processing

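No paired analysis was possible because the groups' labels share fewer than 2 replicate numbers. Against 18 genes past the threshold, total counts gave 35 (26 higher, 74.3% against 55.6%), all genes with at least 1 count 81, DESeq2 250, and limma-voom, the identifier covariate and the hearts with numbers alone 0 each (907, 973 and 1054 at an unadjusted p under 0.05). Leaving out 1 heart gave 0 to 140. It gave 0 without control heart 1, 2 or 4 or transferred heart 2, 1 (Thrsp, named after its value was seen) without control heart 3, 27 without transferred heart 1, and 140 without transferred heart 3. The added alternatives, chosen after seeing the data, gave 3 (without control heart 3 and transferred heart 2) and 0 (Dbp minus Arntl as covariate). The count of clock genes stayed at 0 in 18 of 19 alternatives and was 1, Dbp, without those 2 hearts. Further clock genes gave 1 with DESeq2, and early response genes 1 with DESeq2 and 1 with all genes with at least 1 count.

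Dbp, Per2, Arntl, Bhlhe40 and Clock kept their direction in all 18 alternatives fitted for them, with log2 fold changes from 0.39 to 2.32 for Dbp (edgeR adjusted p from 0.0224 to 0.941) and 0.17 to 1.34 for Per2. Npas2 turned to -0.041 with the identifier covariate, -0.17 in hearts with numbers alone, -0.10 with limma-voom, and -0.205 to 0.34 when 1 heart was left out (-0.000355, -0.064, -0.205 and -0.17 without control hearts 2 and 3 and transferred hearts 1 and 3). Bhlhe41 turned to -0.033 in hearts with numbers alone, -0.011 without control heart 1 and -0.028 without transferred heart 2. Per3 turned to -0.0064 without control heart 4 and -0.15 without transferred heart 2. Cry2 turned to -0.090 and Ciart to -0.52 without transferred heart 2, and to -0.088 and -0.36 without that heart and control heart 3. Leaving out 1 heart gave at most 0.20 for Bhlhe41, 0.43 for Per3, 0.092 for Cry2 and 0.84 for Ciart. The index difference of 0.67 became 1.90 as Dbp minus Arntl alone.

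Of 9 relations with Arntl 1 passed, and 0 did with group means subtracted, without the 2 farthest hearts, or without any 1 heart (0 to 0). With group means subtracted or without the 2 farthest hearts, the arrangements are too few for 1 relation alone to pass after adjustment over 9, whatever its r. The loss of the call in those 2 settings therefore tells nothing about the relation. Without the 2 farthest hearts r turned to -0.13 for Clock, -0.85 for Npas2, 0.39 for Per3, 0.75 for Cry2 and 0.81 for Ciart, and without transferred heart 2 to 0.19 for Cry2 (from -0.89 when 1 heart was left out). Causes were not tested.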
